A study of Mus musculus with 6 samples.

Results

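Mouse eggs make a set of transcripts that almost no other cell makes, and 10 of them were followed here in embryos at the 4-cell stage. They encode the zona pellucida glycoproteins (Zp1, Zp2, Zp3), the zona protease ovastacin (Astl), secreted oocyte factors (Gdf9, Bmp15, Oosp1) and oocyte-restricted proteins of the cytoplasm and nucleus (Omt2a, Oog1, Npm2). They were chosen by gene symbol, and all 10 were found among the 29431 genes of the expression table. Embryos treated with AXKO-0046, a compound that the labels give as inhibiting lactate dehydrogenase B (LDHB), made up 3 libraries. Untreated control embryos made up another 3 libraries. All were labelled wild type, with no strain named. LDHB is a subunit of the enzyme that interconverts lactate and pyruvate. The series' description speaks of 6 embryos at the 4-cell stage for each group, with 3 replicates, so each library is a pool of embryos. Nothing in the labels ties the replicates to separate litters or cultures, so p-values reflect the variation among these libraries only, and that variation may be technical.

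The growing oocyte stores messenger RNA for meiosis, fertilisation and the first divisions, and the fully grown oocyte stops transcribing. After fertilisation the egg's RNA is cleared in waves while the embryonic genome takes over. Egg-only transcripts still present at the 4-cell stage are therefore often read as maternal residue. No egg or earlier embryo was sequenced in this series, so whether the embryo itself transcribed these genes was not tested. The zona pellucida is the glycoprotein coat that the egg secretes while it grows, and sperm bind it at fertilisation. GDF9 and BMP15 are ligands of the transforming growth factor beta superfamily that the oocyte sends to the surrounding cumulus cells. Many stored messages carry a short poly(A) tail that the cytoplasm lengthens through the cytoplasmic polyadenylation element (CPE), a motif bound by CPEB1 that lies near the polyadenylation hexamer. The cDNA was primed with oligo(dT), per the labels' protocols. In such pooled samples, fewer cells holding a transcript and less of it per cell cannot be told apart. Neither can less of a transcript and a shorter poly(A) tail on it.

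Because an oligo(dT) primer reads from the poly(A) tail, the end of each message is shown first. The transcript used is the longest coding one that the authors' table lists for each gene, read from GENCODE M21 on the mouse build GRCm38. The lines give 30 bases around the polyadenylation hexamer of each transcript, in the sense direction, with the hexamer (AATAAA) and any CPE match (TTTTAT or TTTTAAT) in capitals:
Zp1: agatattaaatggactcAATAAAccattgt
Zp2: gtttgtctttaaactctAATAAAattatcc
Zp3: ccttgtatcccttccgcAATAAAagaagaa
Astl: atgtgggaaaaggtagaAATAAAgttgggt
Gdf9: gTTTTATgtgacggaagAATAAActgttga
Bmp15: ttttcttaatcttaaagAATAAAttttcat
Oosp1: ataaaatctgattaaagAATAAAaatttcc
Omt2a: ttaacggTTTTATaataAATAAAagtttca
Oog1: atctgttgactgcatacAATAAAtctgttg
Npm2: agctcgcctagggccacAATAAAatttgca

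All 10 transcripts held AATAAA within their last 100 bases, and 81.1% of the 7451 tested genes with a coding transcript held AATAAA or ATTAAA there. In Zp1, Zp2, Zp3, Gdf9, Bmp15, Astl, Omt2a, Oog1 and Npm2 the hexamer began between 18 and 28 bases from the annotated end. Oosp1 was the exception, with its hexamer 93 bases from the end of a transcript of 972 bases. A shorter coding transcript of Oosp1, of 495 bases, ends 18 bases after the start of its hexamer. A CPE match lay in the last 100 bases of Gdf9, Omt2a and Oog1, 3 of the 10, against 18.9% of the tested genes with a coding transcript. Omt2a held 2 matches, the nearer beginning 30 bases from the end and the farther 73 bases, while those of Gdf9 and Oog1 began 39 and 60 bases from the end. Shorter coding transcripts of Omt2a, of 478 and 365 bases, held neither a hexamer nor a CPE match there. Zp1, Zp2, Zp3, Astl, Bmp15, Oosp1 and Npm2 held no match in the transcript used, and the shorter Oosp1 transcript held 1.

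The 3′ untranslated regions were short. Their median was 237 bases over the 10 transcripts, against 866 bases over the tested genes with a coding transcript. Zp3 had only 13 bases after its stop codon, so its hexamer, which begins 18 bases from the end, overlaps the stop codon. Zp1 had 34 such bases, and 6.63% of the tested coding genes had fewer than 100. Zp2 (173 bases), Npm2 (203 bases), Oosp1 (230 bases), Omt2a (244 bases) and Gdf9 (360 bases) were intermediate. Astl (877 bases), Oog1 (1480 bases) and Bmp15 (1523 bases) were the longest. A motif match describes letters in a window and was not tested for activity.

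**Figure D1:**
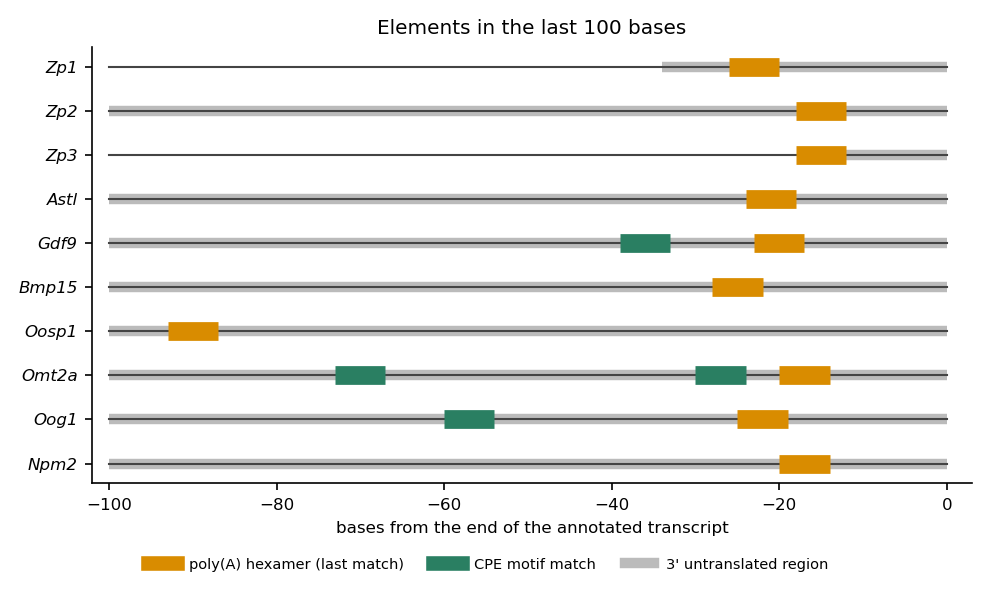
Bases from the annotated transcript end (horizontal axis) over the last 100 bases of each of the 10 transcripts: grey bars are the 3′ untranslated region, orange blocks the last polyadenylation hexamer and green blocks CPE motif matches. The Oosp1 hexamer lies 93 bases from the end, while in the other 9 transcripts it lies between 18 and 28 bases, and Omt2a has 2 CPE matches.

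Promoter sequences are shown for the transcripts above 5 FPKM that have an entry, because FIGLA, the basic helix-loop-helix factor that drives zona genes in growing oocytes, binds the E-box CANNTG. A RefSeq promoter (build GRCm38.p6), from 250 bases before to 50 bases after the start site, was present for 6 of the 10 genes: Zp3, Astl, Bmp15, Oosp1, Omt2a and Oog1. E-boxes are in capitals, and each sequence runs in the direction of the gene:
Zp3: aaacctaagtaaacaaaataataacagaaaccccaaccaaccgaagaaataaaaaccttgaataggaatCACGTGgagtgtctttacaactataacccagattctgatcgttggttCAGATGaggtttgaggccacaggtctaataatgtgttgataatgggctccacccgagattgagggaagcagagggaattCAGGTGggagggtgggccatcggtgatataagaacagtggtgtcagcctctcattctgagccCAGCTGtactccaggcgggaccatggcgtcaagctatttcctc
Oosp1: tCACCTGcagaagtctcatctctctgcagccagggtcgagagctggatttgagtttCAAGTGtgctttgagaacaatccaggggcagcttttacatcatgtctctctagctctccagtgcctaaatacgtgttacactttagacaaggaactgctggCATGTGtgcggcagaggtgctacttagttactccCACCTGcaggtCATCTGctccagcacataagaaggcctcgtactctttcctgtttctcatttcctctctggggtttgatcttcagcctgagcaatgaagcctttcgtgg
Omt2a: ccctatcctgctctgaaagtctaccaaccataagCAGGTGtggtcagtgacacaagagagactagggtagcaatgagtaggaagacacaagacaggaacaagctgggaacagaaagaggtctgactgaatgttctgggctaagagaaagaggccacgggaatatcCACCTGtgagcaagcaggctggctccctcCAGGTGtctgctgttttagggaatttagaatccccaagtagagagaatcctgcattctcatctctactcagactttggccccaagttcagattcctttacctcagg
Oog1: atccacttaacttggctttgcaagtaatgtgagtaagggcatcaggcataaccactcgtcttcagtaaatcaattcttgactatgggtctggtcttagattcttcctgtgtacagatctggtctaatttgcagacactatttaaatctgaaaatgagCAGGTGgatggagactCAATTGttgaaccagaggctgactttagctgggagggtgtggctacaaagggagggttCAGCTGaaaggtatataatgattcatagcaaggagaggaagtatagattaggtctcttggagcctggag

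The Zp3 promoter (chr5:135979855-135980154, plus strand) held 4 E-boxes. That farthest upstream, 181 bases before the start, is the palindrome CACGTG, which occurs in 7.15% of all 32851 promoters of the table. The Oosp1 promoter (chr19:11691002-11691301, minus strand) held 5 E-boxes. Those of Omt2a (chr9:78313999-78314298, minus strand) and Oog1 (chr12:87602415-87602714, plus strand) held 3 each. The Omt2a window lies inside the GENCODE span of the gene (chr9:78311972-78314796), so its start site is not the 5′ end of that span. Of all promoters 72.3% held at least 1 E-box, with a median of 1, so holding an E-box is common. The core bound by NOBOX, an oocyte homeodomain factor (TAATTG or TAATTA, on both strands), was found in Bmp15 among the 6 genes, against 12.4% of all promoters. A palindrome such as CAATTG in Oog1 counts as an E-box only.

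Levels are given in FPKM, fragments scaled to transcript length and to the number of mapped fragments, as the authors deposited them. Each value is thus relative to the rest of its library, so it also depends on the other transcripts there. The 6 libraries summed to between 457020 and 498310 FPKM with inhibitor and between 511530 and 524540 FPKM in controls. Mitochondrially encoded genes held 12.0%, 11.2% and 10.6% of that sum with inhibitor, against 15.1%, 16.7% and 18.9% in controls, and their part in the differences below was not tested beyond rescaling the libraries without them. Of 14 markers of the 4-cell embryo, 8 reached a mean of 1 FPKM over the 6 libraries. Klf17, a transcription factor, was the highest, with 166.2 ± 61.9 FPKM with inhibitor and 162.4 ± 8.16 FPKM in controls (SD, n = 3 each). Sox2, Eomes, Cdx2, Carm1, Sox21 and Gata6 averaged under 1 FPKM. Of 16 cumulus and granulosa markers, 10 were listed. The 8 of them other than Amhr2 and Nr5a2 summed to 0.0203, 0.102 and 0.417 FPKM with inhibitor, against 0.182, 0 and 1.28 FPKM in controls. Each of these 8 was under 1 FPKM in every library. The highest was Tnfaip6, with 0.990 FPKM in control replicate 3 and 0.395 FPKM in inhibitor replicate 3. Amhr2 and Nr5a2 were higher: Amhr2 lay between 11.3 and 22.9 FPKM with inhibitor and between 10.1 and 15.6 FPKM in controls. Nr5a2, which early embryos also express, lay between 10.4 and 11.6 FPKM with inhibitor and between 10.1 and 21.9 FPKM in controls. These 2 were set aside after their values were seen. The libraries of inhibitor replicate 2 and control replicate 3 stood apart. Inhibitor replicate 2 had the highest value of 18 of 18 tested genes of the early 2-cell stage, where 2568 of all 9691 tested genes were highest in that library. The 19 listed genes of that stage summed to 1821 FPKM there, with 83.5 and 89.9 FPKM in inhibitor replicates 1 and 3, against 75.7, 283.0 and 104.4 FPKM in controls. Control replicate 3 held the highest value of 12 of 27 tested transcripts of the other maternal list, where 12.6% of all tested genes were highest in that library.

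The egg transcripts differed widely in level, and in both groups Omt2a was far above the rest. The mean over 6 libraries was 100.3 FPKM for Omt2a, 27.0 for Npm2, 24.6 for Zp3, 14.9 for Oog1, 10.3 for Oosp1, 1.93 for Gdf9, 1.62 for Bmp15, 1.01 for Zp2, 0.688 for Zp1 and 0.229 for Astl. Omt2a exceeded Npm2 in 6 of 6 libraries, Zp3 exceeded Oog1 in 6, Oosp1 exceeded Gdf9 in 6 and Bmp15 exceeded Zp2 in 6. The other neighbours were not separated. Npm2 was above Zp3 in 4 of 6 libraries, Oog1 above Oosp1 in 4, Gdf9 above Bmp15 in 4, Zp2 above Zp1 in 4 and Zp1 above Astl in 4. The order of Oog1 and Oosp1 differed by group: Oog1 was higher in 3 of 3 inhibitor libraries and in 1 of 3 controls. In controls the mean of Omt2a was above that of 93.6% of the 9691 tested genes, and the mean of Gdf9 was above 26.0%.

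The difference between the groups was tested with limma on log2(FPKM + 1) for the 9691 genes whose mean reached 1 FPKM, with Benjamini-Hochberg adjustment over all of them. Of the 10 transcripts 8 could be tested, and Zp1 and Astl were below that level. No member passed: 0 of 8 had an adjusted p under 0.05, as was true of 0 of 9691 genes in the lower direction (0.0%) and in the higher direction (0.0%). At an unadjusted p under 0.05, 2 members (Oosp1 and Npm2) were lower with inhibitor, against 3.8% of all tested genes, and 0 were higher, against 4.72%. In 3 members (Oosp1, Npm2 and Omt2a) every inhibitor library lay below every control, against 6.26% of all tested genes. Without control replicate 2 the count was 5, against 8.69% of the genes tested then. In 0 members did every inhibitor library lie above every control, against 9.13%. A log2 fold change below 0 was found in 6 of 8, against 42.9% of all tested genes. The median log2 fold change was -0.44 over the 8 tested members and 0.062 over all tested genes. It was -0.22 without inhibitor replicate 2 and control replicate 3, a setting chosen after seeing the data.

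**Figure D2:**
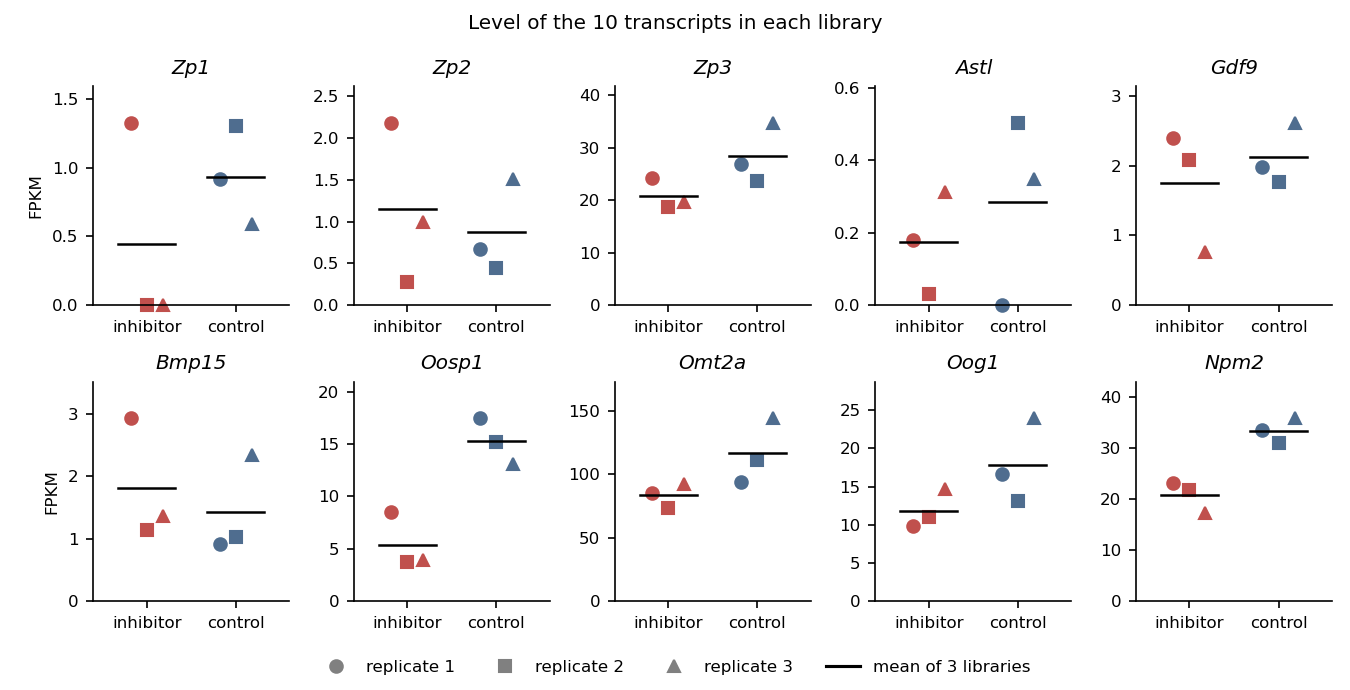
Level in FPKM (vertical axis) of each of the 10 transcripts in every library, inhibitor at left and control at right; points are libraries and horizontal lines are group means. For Oosp1, Npm2 and Omt2a all 3 inhibitor points lie below all 3 control points, while the groups overlap in the other 7 transcripts.

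Among the zona transcripts, Zp3 was the most abundant, and its inhibitor values were lower on average without passing the test. Zp3 (ENSMUSG00000004948, chr5:135980099-135988624, plus strand, 8 exons) encodes the glycoprotein that pairs with ZP2 along the zona filaments. Zp3 stood at 24.2, 18.6 and 19.7 FPKM with inhibitor, against 26.8, 23.7 and 34.8 FPKM in controls. Inhibitor replicate 1 overlapped control replicate 2, and control replicate 3 was the highest. The log2 fold change of Zp3 was -0.42 (SE 0.22, 95% interval -0.91 to 0.070, adjusted p = 0.628 by limma), and it was -0.27 without control replicate 3.

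Zp2 and Zp1 were near the lower end of detection. ZP2 is the zona protein that sperm bind and that ovastacin cleaves after fertilisation. Zp2 (chr7:120126772-120145291, minus strand, 18 exons) had 2.19, 0.280 and 0.994 FPKM with inhibitor, against 0.667, 0.441 and 1.51 FPKM in controls. The groups overlapped throughout, inhibitor replicate 1 holding the highest value and inhibitor replicate 2 the lowest, and the log2 fold change of 0.14 had an interval from -0.75 to 1.04 (limma, adjusted p = 0.935). With control replicate 2 left out it was -0.023, and with inhibitor replicate 2 left out it was 0.47. Leaving out both inhibitor replicate 2 and control replicate 3 gave 0.70. Zp1 (chr19:10914287-10920632, minus strand, 12 exons) encodes the protein that cross-links zona filaments. Zp1 was listed at 1.33, 0 and 0 FPKM with inhibitor, against 0.914, 1.30 and 0.587 FPKM in controls. It was thus listed in every control and in 1 inhibitor library, which held the highest value of all. Astl (chr2:127338639-127357651, plus strand, 9 exons), which encodes ovastacin, the cortical granule protease, was listed at 0.181, 0.0306 and 0.313 FPKM with inhibitor, against 0, 0.504 and 0.347 FPKM in controls. These values overlapped, and with an unknown read depth neither Zp1 nor Astl allows a statement on a difference.

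The genes of the egg surface and of egg activation, which act together with the zona at fertilisation, were not called as different either. Of 9 such genes 5 were tested, 0 passed in either direction, and the log2 fold change was below 0 in 2 and above 0 in 3. The smallest p belonged to Camk2g, the kinase that triggers egg activation in the mouse, with 2.36 ± 0.330 FPKM with inhibitor and 1.49 ± 0.194 FPKM in controls (SD, n = 3 each). All 3 inhibitor libraries were above all controls for Camk2g, with a log2 fold change of 0.43 (limma, adjusted p = 0.628). Zbed3, a subcortical maternal complex protein, had 7.70 ± 3.28 FPKM with inhibitor and 6.08 ± 3.87 FPKM in controls. Wee2, an oocyte kinase that restrains cyclin-dependent kinase, had 1.25 ± 0.483 FPKM with inhibitor and 1.70 ± 1.15 FPKM in controls.

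Of the secreted factors, the ligands Gdf9 and Bmp15 were low and overlapped between the groups, and Oosp1 was the member with the largest difference. Gdf9 (chr11:53431023-53437904, plus strand, 2 exons) had 2.40, 2.09 and 0.763 FPKM with inhibitor, against 1.98, 1.76 and 2.62 FPKM in controls. Inhibitor replicate 3 stood below the other 5 libraries, which lay close together. For Gdf9 the log2 fold change was -0.23 (interval -0.92 to 0.46, limma, adjusted p = 0.834), and it became 0.063 without inhibitor replicate 3. Bmp15 (chrX:6314107-6320721, minus strand, 2 exons) had 2.92, 1.13 and 1.36 FPKM with inhibitor, against 0.918, 1.03 and 2.33 FPKM in controls. Here a single library in each group, inhibitor replicate 1 and control replicate 3, was high. For Bmp15 it was 0.20 (interval -0.56 to 0.96, limma, adjusted p = 0.878) and became -0.068 without inhibitor replicate 1. It was 0.62 without inhibitor replicate 2 and control replicate 3. Both intervals spanned 0, so a difference in these ligands was not detectable here.

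The receptors, SMADs, processing enzymes and antagonist that serve GDF9 and BMP15 signalling were mostly too low to test. Of 20 such genes 4 were tested and 0 passed in either direction. Smad4, the common SMAD that carries the signal to the nucleus, had 5.604 ± 2.81 FPKM with inhibitor and 2.57 ± 1.47 FPKM in controls (SD, n = 3 each). Its log2 fold change was 0.88 (limma, adjusted p = 0.590). Smad2, a SMAD used by GDF9, had 4.95 ± 0.992 FPKM with inhibitor and 3.59 ± 0.301 FPKM in controls, with all 3 inhibitor libraries above all controls (adjusted p = 0.686 by limma). Bmpr1a, a type I receptor for bone morphogenetic proteins, had 1.503 ± 0.475 FPKM with inhibitor and 1.77 ± 0.688 FPKM in controls.

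Oosp1 (ENSMUSG00000041857, chr19:11667460-11691150, minus strand, 5 exons) encodes a small protein that oocytes secrete. Oosp1 was listed at 8.51, 3.69 and 3.92 FPKM with inhibitor, against 17.4, 15.2 and 13.1 FPKM in controls. Every inhibitor library lay below every control, and the highest inhibitor value, in replicate 1, was well below the lowest control, in replicate 3. The means were 5.37 ± 2.72 FPKM with inhibitor and 15.3 ± 2.16 FPKM in controls (SD, n = 3 each), so that the inhibitor mean was 35.2% of the control mean. On the log2 scale the difference was -1.42 (SE 0.31, 95% interval -2.13 to -0.72). Its unadjusted p of 0.00147 ranked 31 among the 9691 genes and became 0.378 after adjustment by limma. The authors' deposited table gave Oosp1 a log2 fold change of -1.51 and a q of 0.0311 and marked it as lower, as it did 104 of 29431 genes (0.353%). Of the 10 transcripts 1 was marked as lower in the authors' deposited table, Oosp1, and 0 were marked as higher, against 0.438% of all genes. Oosp1 was highest in control replicate 1 and lowest among controls in replicate 3. Without inhibitor replicate 2 and control replicate 3 the log2 fold change of Oosp1 was -1.34, and over all 17 alternatives it lay between -1.75 and -1.24.

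Oosp1 lies beside its relatives Oosp3, 5905 bases away, and Oosp2, 6901 bases away. Oosp3 had 1.55, 7.09 and 2.47 FPKM with inhibitor, against 5.24, 5.85 and 11.6 FPKM in controls. Inhibitor replicate 2 was above 2 of 3 controls, and the log2 fold change of -0.97 had an interval from -2.02 to 0.085 (limma, adjusted p = 0.609). Oosp2 had 1.32, 0.268 and 0 FPKM with inhibitor, against 0, 1.03 and 2.201 FPKM in controls, overlapping and too low to test. The groups of both neighbours thus overlapped, and no test compared these genes with Oosp1.

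Among the oocyte-restricted intracellular members, Npm2 and Omt2a had lower values in every inhibitor library, and Oog1 lower values on average. Npm2 (ENSMUSG00000047911, chr14:70647302-70659244, minus strand, 9 exons) encodes nucleoplasmin, the egg's histone chaperone, which helps to remodel sperm chromatin and to organise nuclei of the early embryo. Npm2 was measured at 23.1, 21.6 and 17.3 FPKM with inhibitor, against 33.4, 30.9 and 35.7 FPKM in controls. The groups were separate and each was tight, with 20.7 ± 3.02 FPKM with inhibitor and 33.3 ± 2.43 FPKM in controls (SD, n = 3 each). Its log2 fold change was -0.67 (SE 0.19, 95% interval -1.11 to -0.23), with an unadjusted p of 0.00750 and an adjusted p of 0.426 by limma. In the authors' deposited table the q of Npm2 was 0.0493 with a log2 fold change of -0.69, below the size that the authors required for a mark. With Oosp1 it made 2 of 10 transcripts that were lower at a q under 0.05 in the authors' deposited table, against 0.496% of all genes listed. Npm2 overlaps Xpo7 on the same strand, and Xpo7 was at 0.845 ± 0.052 FPKM with inhibitor and 0.934 ± 0.069 FPKM in controls. Reads from such an overlap cannot be assigned from the deposited values.

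The other nucleophosmin genes overlapped between the groups. Npm1, the nucleolar protein of nearly all cells, had 1199 ± 65.8 FPKM with inhibitor and 1208 ± 3.21 FPKM in controls, and its log2 fold change of -0.013 had an interval from -0.32 to 0.30. Npm3 had 13.3 ± 5.95 FPKM with inhibitor and 9.98 ± 2.48 FPKM in controls. The interval of Npm1 overlaps that of Npm2, and the difference between the paralogs was not tested.

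Omt2a (ENSMUSG00000066463, chr9:78311972-78314796, minus strand, 3 exons), an oocyte maturation transcript, was listed at 85.7, 73.8 and 92.2 FPKM with inhibitor, against 94.0, 111.6 and 144.3 FPKM in controls. Inhibitor replicate 3 was just under control replicate 1, and control replicate 3 was the highest. Omt2a averaged 83.9 ± 9.33 FPKM with inhibitor and 116.6 ± 25.6 FPKM in controls (SD, n = 3 each). The log2 fold change of Omt2a was -0.45 (SE 0.20, 95% interval -0.91 to 0.0050, adjusted p = 0.590 by limma) and it was -0.29 without control replicate 3. After rescaling to library totals without mitochondrially encoded genes, Omt2a overlapped between the groups. In 2 members (Oosp1 and Npm2) every inhibitor library still lay below every control, against 5.89% of the genes tested then. The Omt2a relative Omt2b, 12793 bases away, is 88.9% identical over 61.9% of the transcript. Omt2b had 82.6, 91.6 and 121.2 FPKM with inhibitor, against 129.1, 180.5 and 227.9 FPKM in controls. All inhibitor values were below all controls, with a log2 fold change of -0.84 (SE 0.24, 95% interval -1.39 to -0.28, unadjusted p = 0.0080, adjusted p = 0.426 by limma).

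Oog1 (ENSMUSG00000096576, chr12:87602688-87608850, plus strand, 3 exons) encodes oogenesin, a leucine-rich repeat protein of oocytes and early embryos. Oog1 had 9.87, 10.96 and 14.7 FPKM with inhibitor, against 16.6, 13.1 and 23.9 FPKM in controls. Inhibitor replicate 3 lay above control replicate 2, so the groups overlapped. The log2 fold change of Oog1 was -0.53 (SE 0.27, 95% interval -1.15 to 0.079, adjusted p = 0.628 by limma), and it was -0.31 without control replicate 3. The level of Oog1 itself is uncertain, because other listed genes carry near-identical copies. Gm2042 is 99.6% identical over 99.6% of the Oog1 transcript, Gm10436 is 98.8% identical over its whole length and C87977 is 95.4% identical over 99.7%. The groups overlapped in each of these copies, and none passed the test. Gm2042 had 10.7 ± 2.85 FPKM with inhibitor and 12.9 ± 3.97 FPKM in controls. Gm10436 had 13.3 ± 8.04 FPKM with inhibitor and 9.24 ± 1.35 FPKM in controls, the wide inhibitor spread coming from 22.5 FPKM in replicate 3. C87977 had 6.03 ± 1.46 FPKM with inhibitor and 6.98 ± 1.96 FPKM in controls.

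Of the other oogenesins, Oog2 and Oog3 had separate groups and Oog4 did not. Oog3 was high, with 115.1, 106.4 and 89.3 FPKM with inhibitor, against 128.7, 132.7 and 151.0 FPKM in controls. No Oog3 value overlapped, and the log2 fold change was -0.41 (SE 0.17, adjusted p = 0.572 by limma). Oog2 was low but also separate, with 0.643, 0.941 and 0.735 FPKM with inhibitor, against 1.85, 1.52 and 2.93 FPKM in controls (log2 fold change -0.78, SE 0.26, limma, adjusted p = 0.488). Oog4 had 1.55 ± 0.573 FPKM with inhibitor and 1.10 ± 0.568 FPKM in controls. Over the paralogs of the members 7 of 8 were tested, 0 passed in either direction, 5 had a log2 fold change below 0 and 2 above, and the median was -0.41, against 0.062 over all tested genes. In 3 of these 7 (Omt2b, Oog2 and Oog3) every inhibitor library lay below every control, against 6.26% of all tested genes.

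**Figure D3:**
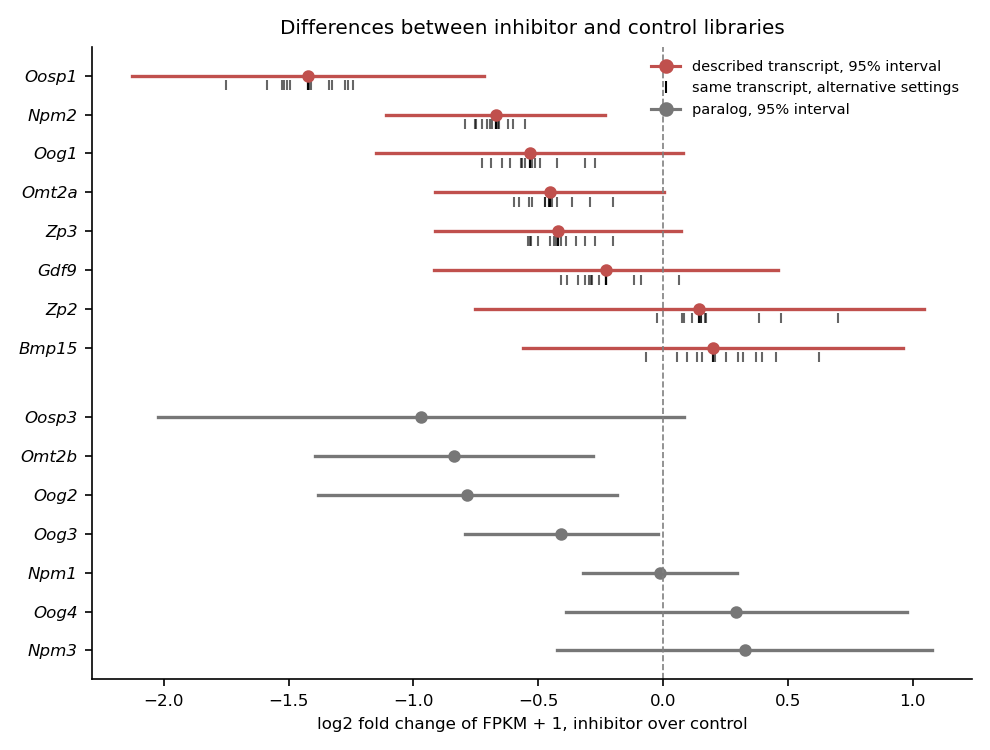
Log2 fold change of inhibitor over control on the log2(FPKM + 1) scale (horizontal axis) for the 8 tested transcripts (red) and 7 paralogs (grey), as points with 95% intervals from limma; black ticks are the values of the 8 transcripts under the alternative settings. The intervals of Oosp1, Npm2, Omt2b, Oog2 and Oog3 lie below 0 without adjustment, and no gene shown passed after adjustment over 9691 genes.

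Summed over the members, every inhibitor library was below every control. The 10 transcripts summed to 160.4, 132.2 and 151.2 FPKM with inhibitor, against 192.8, 199.5 and 259.3 FPKM in controls. The means of these sums were 147.9 ± 14.3 FPKM with inhibitor and 217.2 ± 36.6 FPKM in controls (SD, n = 3 each). Omt2a alone made up 56.7% of the sum with inhibitor and 53.4% in controls. Without Omt2a the sums were 74.7, 58.4 and 59.0 FPKM with inhibitor, against 98.8, 87.9 and 115.0 FPKM in controls, still without overlap. Control replicate 3 held the highest value of 5 of the 8 tested members (Zp3, Gdf9, Omt2a, Oog1 and Npm2), while 12.6% of all tested genes were highest in that library. Inhibitor replicate 1 held the highest value of Zp2 and Bmp15, and control replicate 1 that of Oosp1. Inhibitor replicate 2 held the lowest value of 4 members. The log2 ratio of the summed tested members was -0.55 with all libraries and -0.33 without inhibitor replicate 2 and control replicate 3.

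**Figure D4:**
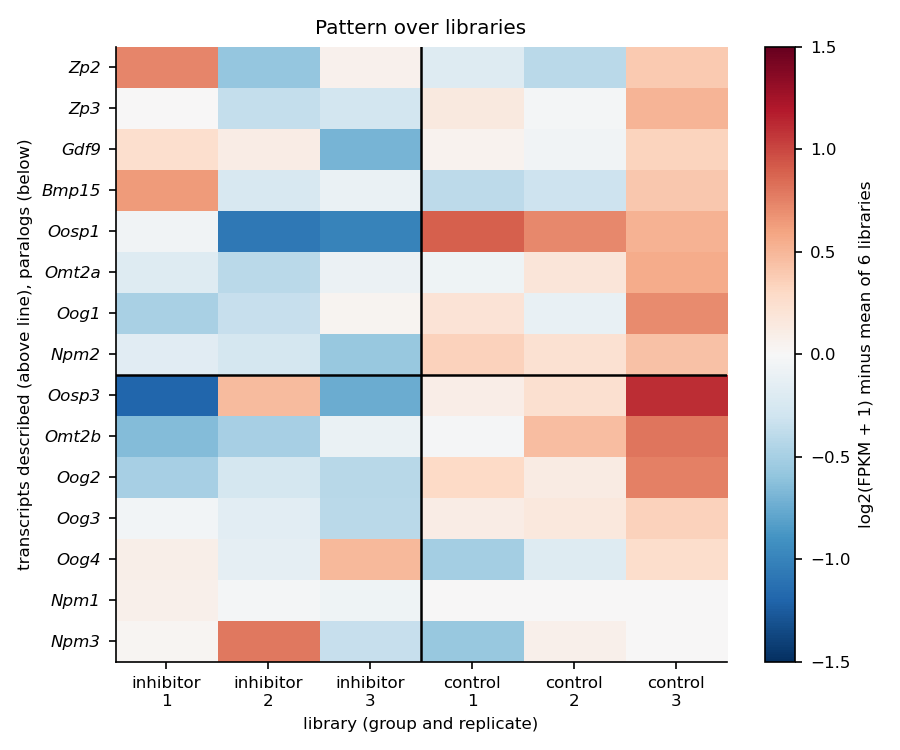
Heat map of log2(FPKM + 1) minus the mean of 6 libraries (colour scale, red above and blue below the mean) for the 8 tested transcripts and 7 paralogs (vertical axis) in every library (horizontal axis), inhibitor at left and control at right. The mean over the 8 tested transcripts is 0.090, -0.40 and -0.33 with inhibitor, against 0.13, 0.028 and 0.48 in controls, so inhibitor replicate 1 is close to control replicates 1 and 2.

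Other maternal transcripts mostly overlapped between the groups. This list holds 40 gene symbols of the oocyte's store outside the members and their paralogs, such as subcortical maternal complex, deadenylation and cyclin genes. Of these 38 were listed and 27 tested. In the test 0 passed in either direction, 0 had an unadjusted p under 0.05, 18 had a log2 fold change below 0 and 9 above 0, and the median was -0.17. Every inhibitor library lay below every control in 1 of the 27, against 6.26% of all tested genes. It was Dazl, an RNA-binding translation factor of germ cells, with 3.67 ± 1.70 FPKM with inhibitor and 6.04 ± 0.403 FPKM in controls (SD, n = 3 each; limma, adjusted p = 0.608). Tcl1, a coactivator of AKT kinase, had 17.7 ± 3.85 FPKM with inhibitor and 38.2 ± 26.7 FPKM in controls, the wide control spread coming from 69.0 FPKM in replicate 3. Ccnb3, a B-type cyclin, had 1.76 ± 0.381 FPKM with inhibitor and 3.13 ± 1.09 FPKM in controls. The whole list summed to 14583, 10719 and 18347 FPKM with inhibitor, against 14698, 13273 and 13586 FPKM in controls, and these sums overlapped. Nearly all of it was Dppa3, a maternal chromatin factor, with 14355, 10514 and 18144 FPKM with inhibitor, against 14496, 13054 and 13186 FPKM in controls. With Dppa3 set aside, a choice made after its values were seen, the sums were 228.4, 204.8 and 202.9 FPKM with inhibitor, against 202.3, 219.8 and 400.6 FPKM in controls. Control replicate 3 was high only in the sums without Dppa3, and the groups overlapped with and without that gene.

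The transcription factors that drive these genes in the oocyte were low. Figla, Nobox, Lhx8, Sohlh1 and Sohlh2, the transcription factors of the growing oocyte, averaged under 1 FPKM and were not tested. Taf4b, a germ cell subunit of the general transcription machinery, had 19.8 ± 4.75 FPKM with inhibitor and 16.5 ± 4.92 FPKM in controls (SD, n = 3 each; limma, adjusted p = 0.791). Among the poly(A) and CPE binding factors, 10 of the 18 listed were tested, 0 passed in either direction, and the log2 fold change was below 0 in 6 and above 0 in 4. Tent2, the cytoplasmic poly(A) polymerase also called GLD2, had 19.99 ± 3.78 FPKM with inhibitor and 14.1 ± 1.29 FPKM in controls, all inhibitor libraries being above all controls (limma, adjusted p = 0.608). Papola, the main nuclear poly(A) polymerase, had 73.1 ± 7.996 FPKM with inhibitor and 93.1 ± 15.2 FPKM in controls, all inhibitor libraries being below all controls (limma, adjusted p = 0.636). Cpeb4, a CPE-binding protein, had 0.888 ± 0.461 FPKM with inhibitor and 1.78 ± 0.731 FPKM in controls.

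Of the 4-cell embryo markers 8 of 14 were tested and 0 passed in either direction, with 6 log2 fold changes below 0 and 2 above. Pou5f1, the pluripotency factor OCT4, had 6.85 ± 4.55 FPKM with inhibitor and 2.98 ± 1.59 FPKM in controls (SD, n = 3 each; limma, adjusted p = 0.675). Tead4, a trophectoderm transcription factor, had 6.95 ± 3.01 FPKM with inhibitor and 9.05 ± 1.53 FPKM in controls. Nanog, a pluripotency factor, had 4.38 ± 1.597 FPKM with inhibitor and 3.70 ± 1.27 FPKM in controls. Of the markers of the 2-cell stage 18 were tested and 0 passed in either direction. Their log2 fold change was above 0 in 17, with a median of 1.58. Inhibitor replicate 2 was the highest library for all 18, and for 2568 of all 9691 tested genes. Tdpoz3, for example, had 2.17, 77.1 and 2.53 FPKM with inhibitor, against 1.02, 1.67 and 0.252 FPKM in controls. The smallest p-values of that list also included Usp17lc, with 0.124, 19.4 and 1.67 FPKM with inhibitor, against 0, 0.225 and 0.0956 FPKM in controls, and Usp17la, where replicate 2 held 15.4 FPKM. Of the cumulus and granulosa list only Nr5a2 and Amhr2 were tested. Nr5a2, a nuclear receptor that early embryos also express, had 10.8 ± 0.713 FPKM with inhibitor and 16.0 ± 5.90 FPKM in controls (limma, adjusted p = 0.668). Amhr2 had 16.6 ± 5.83 FPKM with inhibitor and 13.1 ± 2.77 FPKM in controls (limma, adjusted p = 0.777). Sperm markers were low throughout, the 4 listed summing to 1.76, 1.77 and 0.766 FPKM with inhibitor, against 1.40, 1.19 and 1.07 FPKM in controls.

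The genes most like the members over the 6 libraries were found by the root mean square difference of centred log2(FPKM + 1) profiles. The 4264 genes compared had a mean of at least 5 FPKM. Members and predicted gene models (symbols of Gm and digits, or with Rik) were left out. Nearest to the mean profile of the tested members were Pcgf1 (0.0926), Poc1a (0.101), Impa2 (0.107), Zar1l (0.113) and Gmnn (0.117), where the median gene differed by 0.418. Nearest to Oosp1 were Rab29 (0.285), Gsta4 (0.311), mt-Cytb (0.319), Atp6ap1l (0.326) and Obox8 (0.342), against a median of 0.851. Nearest to Npm2 were Naxe (0.0669), Smim40-ps (0.0682), Smim40 (0.0943), Gnrh1 (0.0962) and Calcoco2 (0.0983), against a median of 0.473. With 6 libraries such likeness is a description only.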

How the data were processed

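Per the labels' protocols, cDNA was primed with oligo(dT), amplified, sheared and read from both ends. The submitters' processing notes name edgeR, DESeq2, StringTie 2.1.6, HISAT2 2.2.1, cutadapt 1.9 and build GRCm38. The role of each tool and the annotation release were not given in the sources used here. Per the file headers, the values that the authors deposited are FPKM. No whole-read step was found among low values, so the depth is unknown, no reads were recovered and no interval from counts is given. No strand or molecular identifier is mentioned, so antisense and overlapping genes cannot be told apart. The authors' fold change is a ratio of group mean FPKM, deposited with its log2, and the authors' p-value and q-value stand beside it; genes are marked where q is under 0.05 and the absolute log2 fold change is at least 1, as checked on 29431 of 29431 genes.

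Values were analysed as log2(FPKM + 1), which understates the change of low genes, with limma 3.58.1 in R 4.3.3 (trended and robust empirical Bayes) on all 9691 genes whose mean over 6 libraries reached 1 FPKM, adjusted by Benjamini-Hochberg at 0.05. The script was tested on simulated data. Transcript ends, motifs and identities came from GENCODE M21 transcripts (GRCm38) and BLAST 2.17.0, with near-identical meaning at least 95% identity over at least 50% of the transcript. Promoters came from RefSeq, matched by symbol. Python 3.11.15 and matplotlib 3.10.9 drew the figures. The members, gene lists and tests were chosen with earlier results of these data known. All 10 members are named; from each other list the 3 tested genes with the smallest unadjusted p are named where none passed, plus closest paralogs. Genes named for levels outside this rule (Klf17, Xpo7, Dppa3, the Oog1 copies) were chosen after their values were seen. Alternatives covered the pseudocount, the filter on low values, scaling, the fit, the replicate block and each library left out.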

Additional observations from a re-analysis of the deposited data

How the results depend on the processing

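No member passed under any of the 17 alternatives, and no gene of the other lists did. Leaving out each library in turn moved the number of members whose groups did not overlap, inhibitor below control, between 3 and 5 (5 without control replicate 2, where 8.69% of all tested genes did so), the median log2 fold change of the members between -0.51 and -0.29, and the log2 ratio of the summed tested members between -0.63 and -0.41. Without inhibitor replicate 2 and control replicate 3, an alternative chosen after seeing the data, the median was -0.22, the log2 ratio of the sums was -0.33, the log2 fold change was -0.20 for Omt2a, -0.20 for Zp3 and -0.27 for Oog1, and in 2 members (Bmp15 at 0.62 and Zp2 at 0.70) every inhibitor library lay above every control, as in 21.7% of all genes tested there. Leaving out control replicate 3 alone gave 1 such member, against 14.8%. The direction turned in 3 members: Bmp15 to -0.068 without inhibitor replicate 1, Gdf9 to 0.063 without inhibitor replicate 3 and Zp2 to -0.023 without control replicate 2. The other 5 tested members kept their direction under all alternatives, with adjusted p from 0.0937 to 0.882 for Oosp1 and from 0.327 to 0.882 for Npm2.

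With the replicate number as a block, 0 members passed, 4 rather than 2 were lower at an unadjusted p under 0.05 (4.04% of all tested genes with the block, 3.8% without it), and the adjusted p was 0.536 for both Oosp1 and Npm2. Deviations of samples sharing a number correlated at 0.136, 0.202 and 0.0368. Those of samples with unlike numbers correlated between -0.194 and 0.0546. The labels tie the samples by a number only, and whether they share more was not tested. The read depth is unknown, which limits what can be said of Zp1, Zp2 and Astl. The cause of these shifts was not tested.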
